A study of Mus musculus with 4 samples.

Results

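The stretch of mouse chromosome X from the Dxz4 macrosatellite to 110 Mb (build mm10) was examined in Hi-C correlation matrices of female tail tip fibroblasts (TTF). It was taken as every 100 kb bin starting from 75.8 Mb to below 110 Mb that had data in all 4 matrices of that bin size, which gave 342 of the 1461 bins with data on the chromosome. The cells were mus/cas hybrids, wild type (WT, 2 replicates) or Sirt7-/- (KO, 2 replicates), and Hi-C was done on chromatin fixed with 2% formaldehyde and cut with HindIII. SIRT7 is a nuclear deacylase of the sirtuin family. The mus and cas copies of the chromosome were kept apart in the deposited matrices, and each matrix combines the replicates of its genotype. Each genotype and allele therefore has 1 value, no difference below has a replicate check, and no test was made. The labels do not say which copy of the X is inactive, how the knockout was made, or whether the replicates are separate animals. The labels and file headers describe Hi-C, although the design text of the series speaks of Xist binding measured by CHART-seq. Sirt7 lies on another chromosome, and Hi-C measures no expression, so neither the knockout nor the fibroblast label could be checked in these matrices.

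Hi-C joins and sequences pieces of DNA that are neighbours in the nucleus, and each value used here is a correlation between the contacts of one bin and those of another. A positive value means that both bins meet the same other parts of the chromosome, and a negative value means that they meet different parts. On an active chromosome, gene-rich and gene-poor segments alternate between the A and B compartments and give a chequered map. The inactive X of female mammals loses most of this pattern and folds into a pair of megadomains that meet at Dxz4, a tandem repeat bound by the insulator protein CTCF. The stretch described here is the part of the right-hand megadomain next to Dxz4, and it contains the X-inactivation centre, from which Xist RNA spreads to coat the chromosome.

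Gene content changes along the stretch. Of its 342 bins, 138 held the midpoint of a protein-coding gene and 204 did not, and 176 of the 966 protein-coding genes of the chromosome lie in it. It was described in 5 intervals. From 75.8 to 83 Mb, 20 of 72 bins held a gene, and from 83 to 93 Mb, which contains most of the long muscle gene Dmd, the long neuronal gene Il1rapl1 and genes of the testis family Mageb, 25 of 100 did. From 93 to 100 Mb the number was 30 of 70 bins, from 100 to 105 Mb, with Ogt and the X-inactivation centre, 36 of 50, and from 105 to 110 Mb, with Atrx and Pgk1, 27 of 50.

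The promoters follow the same division. In the 250 bases before the start of the genes matched in the RefSeq promoter table of build GRCm38.p6, the median number of CG dinucleotides was 2.5 from 75.8 to 83 Mb (22 of 24 genes matched) and 2.5 from 83 to 93 Mb (24 of 27). It was 13 from 93 to 100 Mb (25 of 33), 8 from 100 to 105 Mb (47 of 61) and 6 from 105 to 110 Mb (27 of 31), against a median of 6 over the 817 matched genes of the chromosome. The HindIII site AAGCTT, a palindrome that reads the same on both strands, was present in 15.9% of the 145 matched 300-base promoters of the stretch, 9.55% of those of the chromosome and 7.45% of all 32851 in the table. Sequence of the 250 bases upstream of the start is shown, minus strand, 5′ to 3′, from RefSeq, with CG in capitals. It is given for 4 loci named in the results. They are 4933407K13Rik, the transcript that hosts Dxz4 (chrX:75764700-75764949, 8 CG), and Mageb18, in the gene-poor block before 93 Mb (chrX:92599573-92599822, 1 CG). Eif2s3x, a translation factor gene known to escape inactivation, lies on the gene-richer side of 93 Mb (chrX:94212652-94212901, 19 CG). Xist lies in the X-inactivation centre (chrX:103483234-103483483, 11 CG).
4933407K13Rik: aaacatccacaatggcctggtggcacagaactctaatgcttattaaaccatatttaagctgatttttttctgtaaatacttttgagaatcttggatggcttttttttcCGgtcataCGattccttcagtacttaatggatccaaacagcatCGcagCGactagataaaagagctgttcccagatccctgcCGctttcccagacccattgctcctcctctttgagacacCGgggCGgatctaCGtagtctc
Mageb18: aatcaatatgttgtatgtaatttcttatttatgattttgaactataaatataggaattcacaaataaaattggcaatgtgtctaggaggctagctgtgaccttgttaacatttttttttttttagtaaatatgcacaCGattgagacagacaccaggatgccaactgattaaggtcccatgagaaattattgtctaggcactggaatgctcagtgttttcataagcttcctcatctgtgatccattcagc
Eif2s3x: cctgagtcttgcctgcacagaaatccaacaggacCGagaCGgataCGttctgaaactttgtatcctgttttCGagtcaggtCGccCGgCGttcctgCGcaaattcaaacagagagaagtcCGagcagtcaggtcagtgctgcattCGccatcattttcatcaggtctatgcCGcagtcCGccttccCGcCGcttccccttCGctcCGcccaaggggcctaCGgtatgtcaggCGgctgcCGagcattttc
Xist: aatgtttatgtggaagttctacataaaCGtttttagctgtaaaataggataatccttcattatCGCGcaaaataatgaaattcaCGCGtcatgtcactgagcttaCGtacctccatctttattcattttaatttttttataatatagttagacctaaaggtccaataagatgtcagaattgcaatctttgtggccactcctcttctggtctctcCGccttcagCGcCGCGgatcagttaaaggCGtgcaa

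Read depth is not given in the sources used here, so the similarity of adjacent bins and the spread of the entries were taken as stand-ins. Inside the stretch the mean correlation of adjacent 100 kb bins on mus was 0.0512 for WT and 0.0482 for KO, and on cas it was 0.0640 for WT and 0.0600 for KO. The SD of entries at least 2 Mb apart on mus was 0.0305 for WT and 0.0297 for KO, and on cas it was 0.0480 for WT and 0.0447 for KO. Inside the stretch both stand-ins were lower in KO on both alleles. Over the chromosome this held for both on mus and for the SD on cas, but the mean correlation of adjacent bins on cas was 0.0690 for WT and 0.0716 for KO. Their part in the differences below was not tested, except that the main contrasts are also given after each matrix was divided by its SD over the chromosome.

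The first comparison asked how strongly the stretch is set apart from the chromosome to the left of Dxz4. On mus, bins of the stretch were alike among themselves and opposed to bins beyond Dxz4, and on cas they were not. Over pairs 2 to 34.2 Mb apart, at equal distance, WT had a mean correlation of 0.0255 inside the stretch on mus and KO one of 0.0224. Across Dxz4 it was -0.0163 in WT and -0.0107 in KO. The Dxz4 contrast, inside minus across, was thus 0.0418 in WT and 0.0331 in KO, a KO to WT ratio of 0.792. Leaving out each of the 5 intervals in turn gave ratios from 0.757 to 0.834, dividing by the SD gave 0.832, and the 250 kb matrices gave 0.614, from 0.115 in WT and 0.0703 in KO.

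Both terms of the contrast lay nearer 0 in KO, and the difference was larger across Dxz4 at 250 kb. There the mean inside was 0.0790 in WT and 0.0677 in KO, whereas across Dxz4 WT had -0.0355 and KO -0.00262.

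On cas the same contrast was negative, and segments on either side of Dxz4 were on average more alike than segments inside the stretch. Inside, the mean was 0.00829 in WT and 0.00862 in KO, and across Dxz4 it was 0.0225 in WT and 0.0181 in KO. This made the contrast -0.0142 in WT and -0.00943 in KO, with a ratio of 0.666 (0.709 after division by the SD, 0.751 at 250 kb). Most of it rested on the interval from 100 to 105 Mb, without which the contrast was -0.00194 in WT and -0.000925 in KO.

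The contrast on cas changed sign with distance, whereas that on mus did not. On mus, at 2 to 5 Mb, WT had 0.0313 and KO 0.0145, and at 5 to 10 Mb 0.0436 and 0.0309. At 10 to 20 Mb it was 0.0447 and 0.0368, and at 20 to 34 Mb 0.0381 and 0.0306. The KO to WT ratio on mus was lowest for the nearest pairs, 0.462, and lay at 0.707, 0.822 and 0.803 in the further classes. The nearest class has only 952 pairs across Dxz4, whose mean on mus was 0.00203 for WT and 0.0138 for KO. On cas, at 2 to 5 Mb, WT had 0.0318 and KO 0.0289, and at 5 to 10 Mb 0.0262 and 0.0176. Beyond 10 Mb it was negative, with -0.0220 in WT and -0.0152 in KO up to 20 Mb and -0.0219 and -0.0146 from there to 34 Mb.

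**Figure D1:**
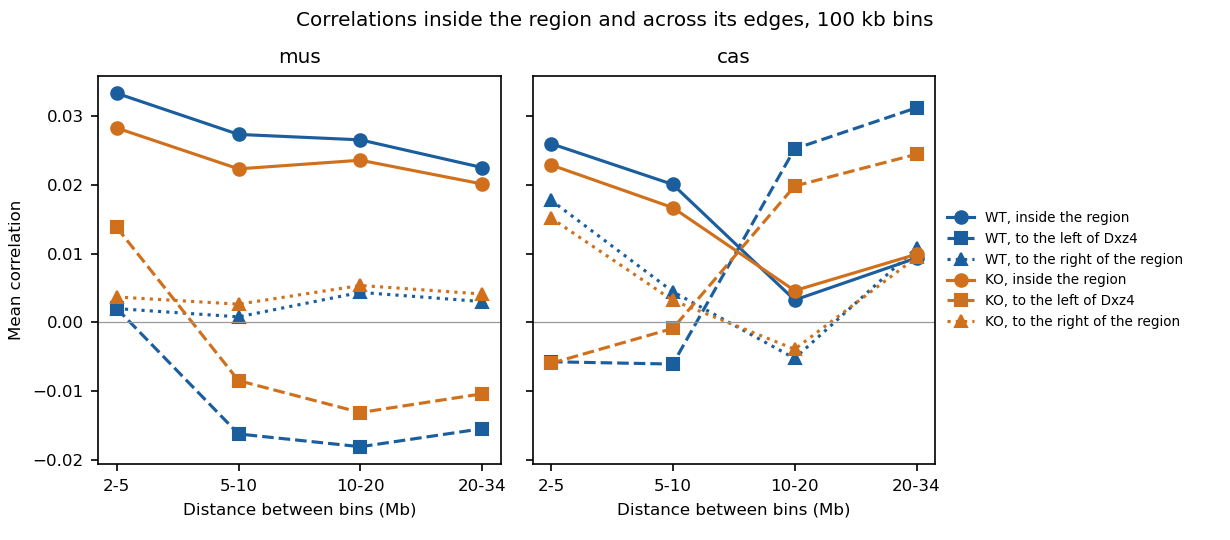
Mean correlation (vertical axis) against the distance between bins in Mb (horizontal axis) for pairs inside the stretch (circles), pairs to bins left of Dxz4 (squares) and pairs to bins right of 110 Mb (triangles), WT in blue and KO in orange, each point being 1 combined matrix. On mus the circles stay above both other kinds of pair at every distance, and on cas the pairs across Dxz4 lie above those inside from 10 Mb on.

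The right end at 110 Mb was less sharply marked. On mus the mean correlation with bins beyond 110 Mb at equal distance was 0.00333 in WT and 0.00450 in KO, near 0 and not opposed as it was across Dxz4. For mus the contrast at this edge was 0.0221 in WT and 0.0179 in KO, with a ratio of 0.807. On cas it was 0.00589 in WT and 0.00626 in KO, and which genotype was higher depended on the edge chosen: with the edge 5 Mb to the right the values were 0.00297 and 0.00248, and without the bins from 93 to 100 Mb they were 0.00709 and 0.00698. No direction is therefore given for cas at this edge.

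The bins just inside and just outside each edge had the following values on mus. The mean distance-adjusted correlation with the stretch, which is the correlation minus the chromosome's mean at that distance, was 0.0168 in WT and 0.0243 in KO for the bin at 75.6 Mb, outside. It was 0.0497 and 0.0409 for the bin at 75.7 Mb that holds Dxz4, which belongs to neither side, and 0.0506 and 0.0398 for the first bin inside. The second bin inside, at 75.9 Mb, had 0.0306 in WT and 0.0251 in KO. At the other end, the bin at 109.8 Mb, inside, had 0.0109 in WT and 0.00482 in KO, and the last bin inside, at 109.9 Mb, had -0.00155 in WT and 0.00408 in KO, and the first outside, at 110 Mb, had -0.00147 and -0.00136, and the next, at 110.1 Mb, -0.00701 and -0.00882. In WT the bins inside the left edge lay above the bin outside it, whereas in KO the second bin inside was close to the bin outside. In WT the bins that meet at 110 Mb were close to each other, and the bin at 109.8 Mb lay above that at 110.1 Mb.

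**Figure D2:**
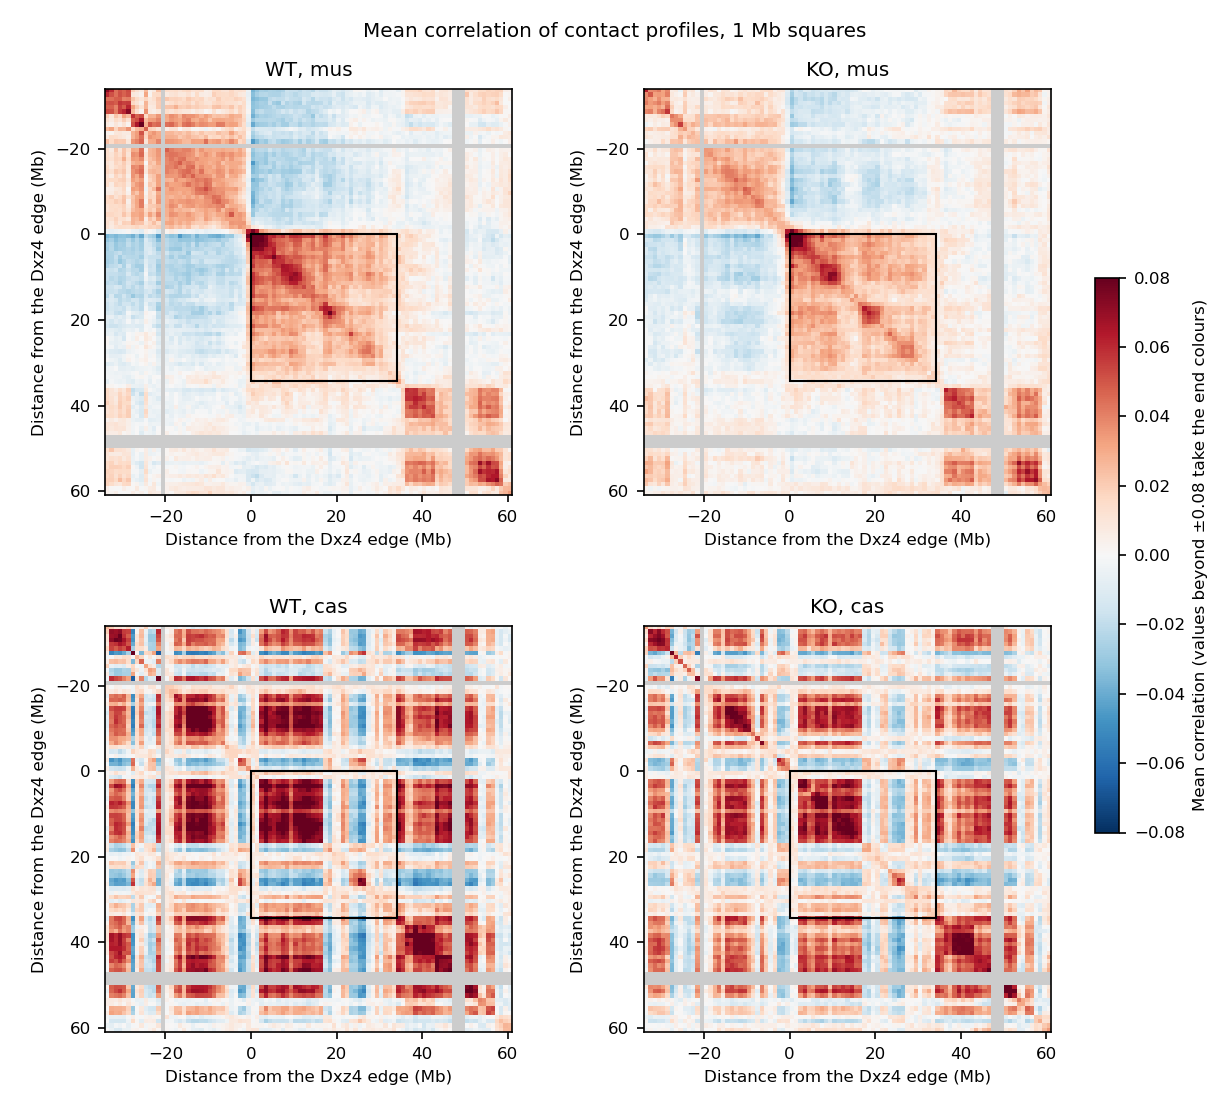
Mean correlation of contact profiles in squares of 1 Mb for the 4 matrices, with both axes in Mb from the Dxz4 edge of the stretch, red positive, blue negative, grey without data, and the stretch outlined in black. On mus the outlined square is mostly red and meets blue at Dxz4 (mean across it -0.0163 in WT and -0.0107 in KO), and on cas the square is chequered and the same bands run on through both of its edges.

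Inside the stretch, the 5 intervals were joined as 1 block on mus and as separate classes on cas. On mus all 15 means within and between intervals were positive in both genotypes, from 0.00899 within the last interval in WT to 0.0577 within the first in WT. The means were largest next to Dxz4. Within 75.8 to 83 Mb the mean was 0.0577 in WT and 0.0480 in KO, and within 83 to 93 Mb 0.0364 and 0.0268. Between these 2 intervals it was 0.0421 and 0.0322. These 3 means near Dxz4 had the largest WT to KO differences of the 15 on mus in the 100 kb matrices as deposited. After the chromosome's mean at each distance was subtracted they were lower in KO by less, and the largest difference was that of 93 to 100 with 105 to 110 Mb, -0.00487 in WT and 0.00469 in KO. With this subtraction at 250 kb, the mean within 75.8 to 83 Mb was higher in KO, 0.0633 in WT and 0.0659 in KO.

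Further right the KO values of the 100 kb matrices were closer to WT or above it. Within 93 to 100 Mb on mus, WT had a mean of 0.0302 and KO of 0.0299, within 100 to 105 Mb 0.0287 and 0.0315, and within 105 to 110 Mb 0.00899 and 0.0108. Between 93 to 100 Mb and 105 to 110 Mb it was 0.0122 in WT and 0.0172 in KO. In all, 11 of the 15 means on mus were lower in KO (12 at 250 kb). These means are not matched on distance, and after the chromosome's mean at each distance was subtracted 8 of the 15 were lower (7 at 250 kb).

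On cas the first 2 intervals, which have the fewest gene-holding bins, were alike, and the interval with the X-inactivation centre, which has the most, stood opposed to them. The mean within 83 to 93 Mb was 0.0682 in WT and 0.0613 in KO, and between 75.8 to 83 and 83 to 93 Mb it was 0.0510 and 0.0434. The interval from 105 to 110 Mb was also alike to 83 to 93 Mb, with 0.0254 in WT and 0.0208 in KO, although 54% of its bins held a gene, so the classes do not follow the gene content of the intervals throughout. Its mean with 100 to 105 Mb was -0.00466 in WT and -0.000395 in KO. The interval from 100 to 105 Mb had a mean of -0.0221 in WT and -0.0116 in KO with 83 to 93 Mb, and of -0.0140 and -0.00684 with 75.8 to 83 Mb. All of these means lay nearer 0 in KO. This held for 12 of the 15 means on cas, for 13 at 250 kb for 14 with distance subtracted and for 11 with distance subtracted at 250 kb.

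The interval from 93 to 100 Mb had means near 0 on cas with every other interval. Its mean within itself was 0.00144 in WT and 0.00493 in KO. With 75.8 to 83 Mb it was 0.000275 and 0.000624, and with 83 to 93 Mb 0.000122 and -0.00139. Bins of both kinds lie in this interval, as the scores of single bins below show.

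**Figure D3:**
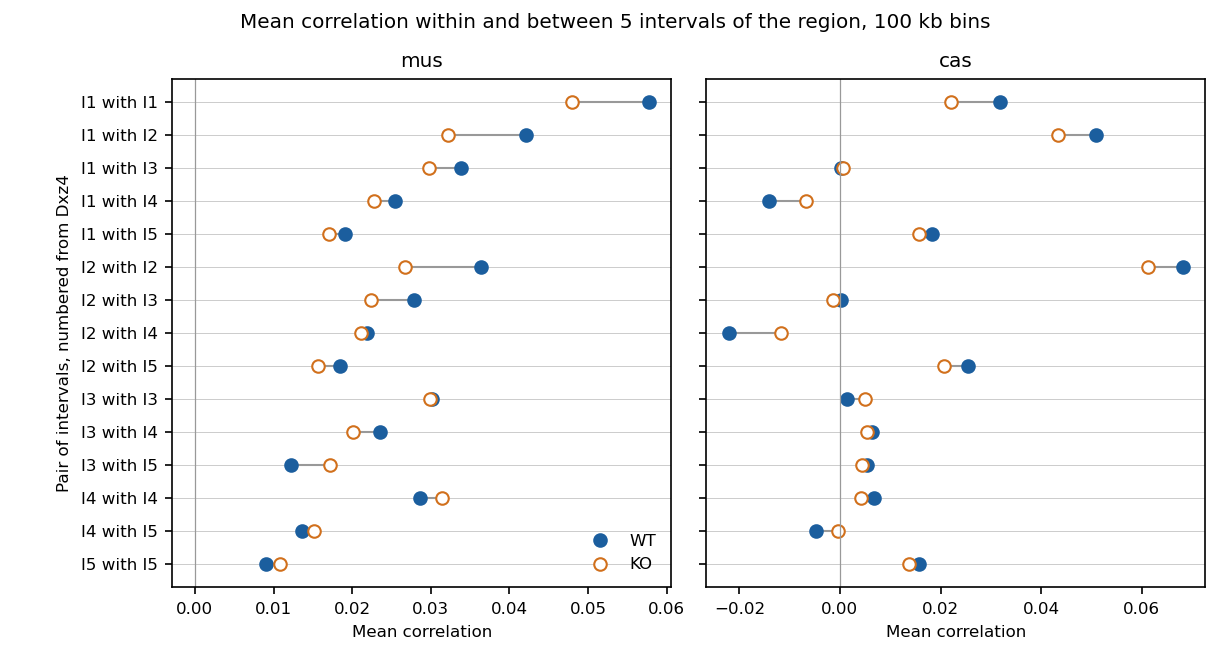
Mean correlation (horizontal axis) within and between 5 intervals (vertical axis) numbered from Dxz4, where I1 is 75.8 to 83 Mb, I2 83 to 93, I3 93 to 100, I4 100 to 105 and I5 105 to 110, filled blue for WT and open orange for KO, each point being 1 combined matrix. On mus all points lie right of 0 and 11 of 15 are lower in KO, and on cas 12 of 15 lie nearer 0 in KO.

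Opposition to the chromosome left of Dxz4 also weakened along the stretch on mus. The mean distance-adjusted correlation of 75.8 to 83 Mb with the left side was -0.0230 in WT and -0.0175 in KO, while for 83 to 93 Mb the values were -0.0159 and -0.0117. For 93 to 100 Mb it was -0.00967 in WT and -0.00941 in KO. For 100 to 105 Mb it was -0.00455 and -0.00764, and for 105 to 110 Mb -0.000933 and -0.00333. Before the mean at each distance was subtracted, 100 to 105 Mb had -0.00447 in WT and -0.00515 in KO, and 105 to 110 Mb -0.00108 and -0.000722. At 250 kb, 100 to 105 Mb had -0.0152 and -0.0128 before it. The order of the genotypes in the last 2 intervals thus depended on the subtraction. With it, the values nearest Dxz4 were closer to 0 in KO and those of the last 2 intervals were further from it, so that the gradient along the stretch was shallower in KO.

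The same was seen bin by bin. The side score of a bin is its mean distance-adjusted correlation with the rest of the stretch minus that with bins left of Dxz4, over pairs 2 to 34.2 Mb apart. It could be computed for 320 of the 342 bins, since 22 at the right end have under 20 partners left of Dxz4 within that distance. On mus the score was above 0 in 299 of 320 bins in WT and 308 in KO (95.4% of all scored bins on both sides of Dxz4 in WT). Its median was 0.0302 in WT and 0.0244 in KO, and 209 of the 320 bins were lower in KO. Over all scored bins on both sides 72.8% were lower in KO, so the share in the stretch was no larger than the background.

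The bins lower in KO were concentrated near Dxz4. From 75.8 to 83 Mb WT had a median side score on mus of 0.0527 and KO of 0.0398, with 64 of 72 bins lower. From 83 to 93 Mb it was 0.0362 and 0.0257, with 80 of 100 lower. From 93 to 100 Mb it was 0.0205 and 0.0210, with 33 of 70 lower. From 100 to 105 Mb it was 0.00718 in WT and 0.0109 in KO, with 19 of 50 lower, and in the 28 scored bins from 105 Mb on 0.00106 and 0.00499, with 13 lower.

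On cas the side score had a median of -0.00518 in WT and -0.00231 in KO, and 97 of 320 bins were lower in KO, against a background of 34.6%. It was above 0 in 81 of 320 bins in WT (background 23.2%). Up to 93 Mb it stayed between -0.0166 and 0.00548 in WT, and from 100 Mb on it swung between -0.0532 and 0.0639. The interval from 100 to 105 Mb had the lowest median, -0.0238 in WT and -0.0188 in KO.

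**Figure D4:**
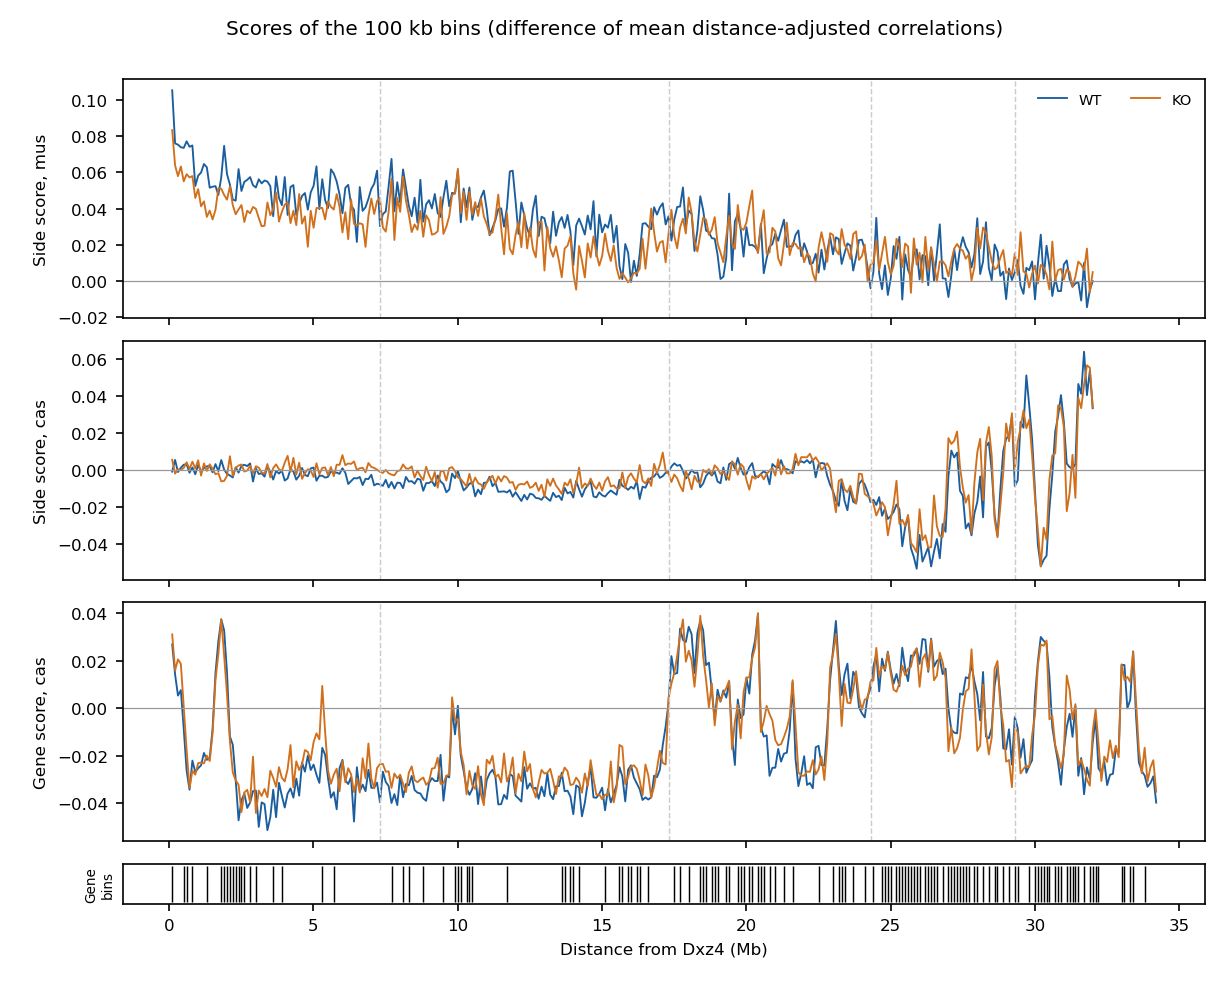
Side score on mus and on cas and gene score on cas (vertical axes, differences of mean distance-adjusted correlations) against distance from Dxz4 in Mb, WT in blue and KO in orange, with dashed lines between the 5 intervals and ticks for bins that hold a protein-coding gene. On mus the side score is highest next to Dxz4 (interval median 0.0527 in WT and 0.0398 in KO) and declines to near 0, and on cas the gene score of WT and KO follows the same course (r = 0.942 over 342 bins).

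The gene score compares a bin with both kinds of bin. It is the mean distance-adjusted correlation of a bin with the gene-holding bins of the stretch minus that with its bins without a gene. On cas it was above 0 in 100 of 342 bins in WT (35.9% over all bins of the chromosome), in 65 of the 138 gene-holding bins and in 35 of the 204 others. Its median was -0.0335 in WT and -0.0284 in KO from 83 to 93 Mb, and 0.0137 and 0.0115 from 100 to 105 Mb. From 93 to 100 Mb it was 0.00433 and 0.00391, with 40 of 70 bins above 0 in WT.

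The score was nearer 0 in KO in 223 of the 342 bins on cas, against 65.3% over all bins of the chromosome, was lower in KO in 132 (background 42.7%) and changed sign in 16. Its course was otherwise shared, with a correlation of 0.942 between WT and KO over the 342 bins, which share their partner bins and lie next to each other. On mus the score stayed near 0, with a median of -0.00241 in WT and -0.000400 in KO. It was above 0 in 85 of 342 bins in WT (background 44.2%) and lower in KO in 102 (background 47%). It was nearer 0 in KO in 197 (background 64.8%) and changed sign in 144.

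The gene contrast, alike minus unlike pairs of bins by gene content inside the stretch at equal distance, was 0.0124 in WT and 0.0106 in KO on cas. On mus it was 0.00162 and 0.000377. This measure depended on how bins were classed. With a bin counted as gene-holding wherever a gene body overlaps it, the contrast on cas was -0.000287 in WT and -0.000313 in KO and 213 bins were gene-holding. At 250 kb it was 0.000548 and 0.000587 by midpoints, and by gene bodies -0.0318 in WT and -0.0256 in KO. The sign of the contrast on cas therefore depended on the bin size and on how bins were classed.

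The matrices of the 2 genotypes were more alike on cas than on mus. Over the 52003 pairs of bins at least 2 Mb apart inside the stretch, WT and KO had a correlation of 0.633 on cas and 0.130 on mus. At 250 kb these were 0.904 and 0.353. Over the whole chromosome at 100 kb the values were 0.533 on cas and 0.175 on mus. The mus and cas matrices of a genotype had correlations of 0.0940 in WT and 0.0440 in KO. The pairs share bins, so these values are descriptions of the matrices only. The SD of the entries was smaller on mus, 0.0305 in WT and 0.0297 in KO, than on cas, 0.0480 and 0.0447. Its part in the lower correlation on mus was not tested. With the replicates combined, no correlation between matrices of the same genotype and allele was available for comparison.

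Compared with the other parts of the chromosome, the stretch had the largest mean correlation within itself on mus at 2 to 5 Mb, 0.0343 in WT and 0.0294 in KO. From 40 Mb to Dxz4 the mean was 0.0321 in WT and 0.0235 in KO. From 140 Mb to the end it was 0.0327 in WT and 0.0183 in KO, from 110 to 140 Mb 0.0287 and 0.0264, and in the first 40 Mb 0.0161 and 0.0117. The WT values of the first 3 lay close together, and in KO they lay further apart. At 250 kb the stretch was no longer the largest: it had 0.124 in WT and 0.108 in KO, and 40 Mb to Dxz4 had 0.131 and 0.118.

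Steps in the map were located with the boundary score, which subtracts the correlation across a bin's left edge from the mean of those within 1 Mb to either side of it and is not matched on distance. On cas the highest score of the stretch in both genotypes lay at 93 Mb, 0.0657 in WT and 0.0684 in KO with Mageb18 to its left. The promoters of Mageb18 and Eif2s3x printed above lie on either side of this step but not at it, and no measure here links them to it. With a window of 2 Mb the score there was 0.0602 in WT and 0.0588 in KO, so the genotypes had no settled order. In WT the next on cas lay at 78 Mb beside the odorant-binding protein gene Obp1a, 0.0568 in WT and 0.0455 in KO. In KO the edge at 78 Mb lies within 2 Mb of a higher one at 76.3 Mb, which had 0.0356 in WT and 0.0544 in KO. It is therefore missing from the 5 highest KO edges at least 2 Mb apart, although one of these, at 102.6 Mb, had only 0.0439. Of the 34 highest edges on cas in WT 29 were also among the 34 highest in KO, against 34 of all 341 edges. The scores of the 341 edges had a correlation of 0.861.

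On mus the boundaries were weaker and fewer were shared. The highest in WT lay at 93.5 Mb inside Pola1, a DNA polymerase subunit gene, with 0.0210 in WT and 0.00278 in KO. The value at 76.7 Mb was 0.0182 in WT and 0.00946 in KO. In KO the highest lay at 87.9 Mb inside Il1rapl1, 0.0163 against 0.00525 in WT. Of the 34 highest edges on mus 6 were shared, against 34 of all 341 edges, and the correlation over 341 edges was 0.131. Boundary scores of the mus copy varied less (SD 0.00465 for WT, 0.00490 for KO) than those of the cas copy (0.0133 and 0.0134). The part of this smaller spread in the low overlap was not tested. The difference at 93.5 Mb depended on the window, with 0.0137 in WT and 0.0118 in KO at 2 Mb.

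**Figure D5:**
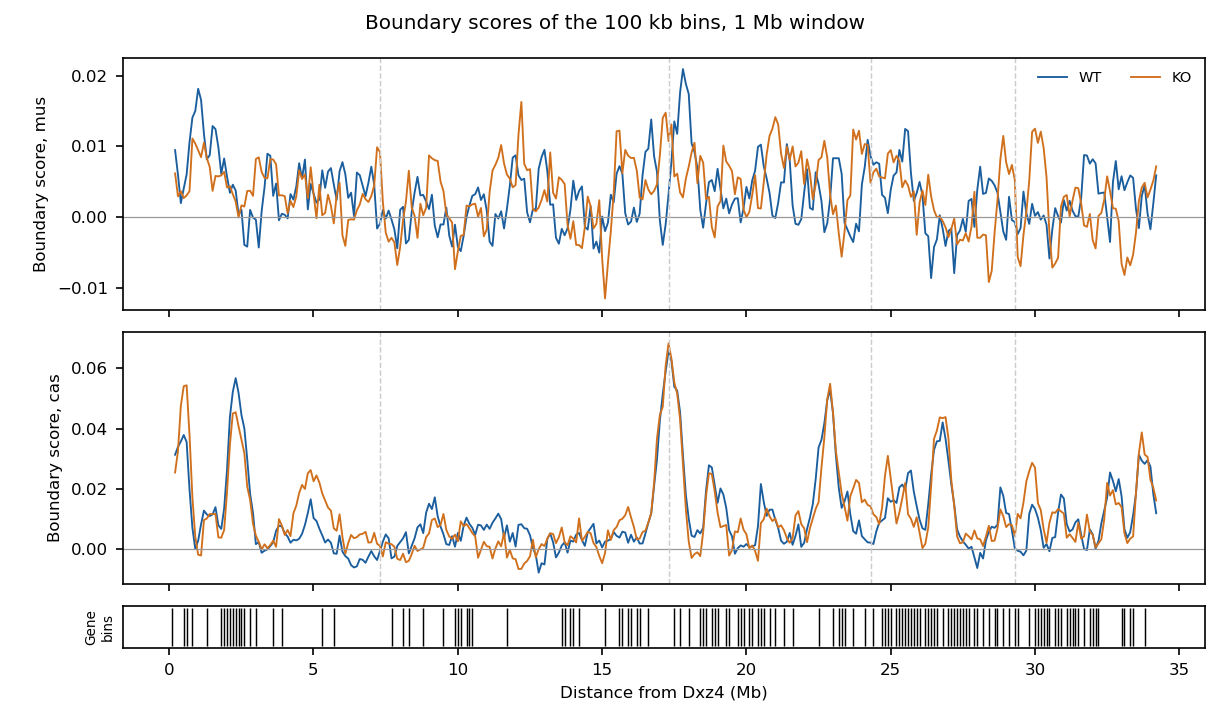
Boundary score of the 100 kb bins with a 1 Mb window (vertical axes) on mus and on cas against distance from Dxz4 in Mb, WT in blue and KO in orange, with dashed lines between the 5 intervals and ticks for gene-holding bins. On cas WT and KO peak at the same places (r = 0.861), the highest being 0.0657 in WT and 0.0684 in KO, and on mus no peak exceeds 0.0210 and few coincide (r = 0.131).

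The X-inactivation centre was described through 9 genes in 5 bins from 103.3 to 103.9 Mb. It contains the noncoding RNA gene Xist and Tsix, which is transcribed antisense to it. Jpx and Ftx are noncoding RNA genes that promote Xist expression, and Rlim encodes a ubiquitin ligase that does so too. Tsx, Cdx4, a homeobox gene, Chic1 and Zcchc13 flank them. On mus the side score was lower in KO in 4 of the 5 bins, with a median of 0.0148 in WT and 0.0122 in KO. This compares with 209 of 320 over the stretch and 19 of 50 in their own interval, 100 to 105 Mb. On cas it was higher in KO in all 5, with a median of -0.0287 in WT and -0.0162 in KO, against 223 of 320 over the stretch and 37 of 50 in that interval. The 5 bins lie within 1 Mb and share most of their partners, so they are not independent of each other.

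The bin at 103.4 Mb, which holds Xist, Tsix, Tsx and Jpx, had side scores on mus of 0.0158 (WT) and 0.0144 (KO), and on cas of -0.0287 and -0.0134. The bin of Cdx4 and Chic1 had 0.0188 and 0.0122 on mus. That of Ftx had 0.00735 and 0.000229 on mus, and that of Zcchc13 0.0148 and 0.00753. Rlim differed from the others on mus, with 0.0107 in WT and 0.0295 in KO. At 250 kb the bin that takes in Cdx4 and Xist had a higher value in KO on mus, so their direction on mus depended on the bin size.

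Seen from Xist and the bins beside it (300 kb), the correlations with the start of the stretch were lower in KO on mus and less negative on cas. On mus the mean correlation with 75.8 to 83 Mb was 0.0309 in WT and 0.0159 in KO, with 93 to 100 Mb 0.0267 and 0.0133, and with 105 to 110 Mb 0.0131 and 0.0129. With the chromosome left of Dxz4 it was -0.00933 and -0.00817. On cas it was -0.0297 in WT and -0.0180 in KO with 83 to 93 Mb, and 0.0122 and 0.0145 with 93 to 100 Mb.

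Seen from Dxz4 itself, on mus the mean correlation declined along the stretch, from 0.0732 in WT and 0.0676 in KO with 75.8 to 83 Mb to 0.0241 and 0.0181 with 105 to 110 Mb. With the left side it was -0.0336 in WT and -0.0317 in KO. The viewpoint takes in the bins at 75.6 and 75.7 Mb and also the first bin of the stretch, so part of its likeness to the stretch on mus is built in. On cas the values were -0.00955 in WT and -0.0241 in KO with 75.8 to 83 Mb, and 0.0156 and 0.0174 with 100 to 105 Mb. With the left side they were -0.00159 and -0.0102.

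Ogt, which encodes the enzyme that attaches O-GlcNAc to proteins, gave the strongest opposition on cas among the 8 viewpoints. Its 300 kb had a mean of -0.0585 in WT and -0.0418 in KO with 83 to 93 Mb, and of -0.0422 and -0.0318 with 75.8 to 83 Mb. On mus the same values were 0.0173 in WT and 0.0214 in KO, and 0.0227 and 0.0271. Pgk1, a glycolytic enzyme gene, had -0.0313 in WT and -0.0235 in KO with 83 to 93 Mb on cas. On mus it had 0.0339 and 0.0157 with 100 to 105 Mb. Dmd, the dystrophin gene, stood in the opposite class on cas, with 0.0709 in WT and 0.0634 in KO within 83 to 93 Mb and -0.0252 and -0.00831 with 100 to 105 Mb. Il1rapl1, which encodes a synaptic receptor, had 0.0707 and 0.0687 within 83 to 93 Mb on cas, and 0.0497 in WT and 0.0322 in KO with 75.8 to 83 Mb on mus.

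Genes known to escape inactivation lay in 4 bins. On mus the side score was lower in KO in 3 of them, although its median was 0.0116 in WT and 0.0148 in KO. On cas it was higher in all 4. Over the stretch 209 of 320 bins were lower on mus and 223 of 320 higher on cas, so 3 of 4 on mus is near the share of all bins, and 2 of the 4 are also bins of the X-inactivation centre. On mus Eif2s3x had 0.0391 in WT and 0.0349 in KO, and on cas -0.00722 and 0.000149. On mus the bin of Pbdc1 and the noncoding gene 5530601H04Rik had 0.00457 in WT and 0.0152 in KO. The 300 kb around Eif2s3x were opposed on cas to 83 to 93 Mb, with -0.0426 in WT and -0.0342 in KO. On mus they were alike to it, with 0.0345 and 0.0291.

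Genes known to be silenced on the inactive X lay in 22 bins, 21 of them with a side score. On mus 12 of the 21 were lower in KO and 9 higher, with medians of 0.0194 and 0.0206. Of the scored gene-holding bins of the stretch 70 of 131 were lower, and of all its scored bins 209 of 320. On cas the gene score of the 22 bins had a median of 0.0233 in WT and 0.0235 in KO. That of the whole stretch was -0.0239 and -0.0204, and that of its 138 gene-holding bins, the closer comparison, -0.00378 and -0.00463. The highest difference on mus was that of Las1l, a ribosome maturation gene, with 0.0199 in WT and 0.0500 in KO, followed by Rlim. The lowest were Zfx, a zinc finger transcription factor gene, with 0.0468 and 0.0254, and Magt1, a magnesium transporter gene, with 0.0255 and 0.00875.

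The testis and germ cell genes, mostly of the Mageb family, lay in 12 bins. On mus 10 of the 12 were lower in KO, with medians of 0.0296 in WT and 0.0198 in KO. All but the bin of Cypt2 lie before 93 Mb, where 64 of 72 and 80 of 100 bins of the first 2 intervals were lower, so the count is near the share of their neighbours. On cas their gene score had a median of -0.0341 and -0.0291. The largest differences on mus were those of Fthl17a, 0.0462 in WT and 0.0259 in KO, and Mageb17-ps, 0.0156 and -0.000958. Mageb4 had 0.0338 and 0.0365, and Mageb5 -0.000686 and 0.00132, and both were lower in KO at 250 kb.

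Neuronal genes lay in 6 bins, with 2 lower and 4 higher in KO on mus and medians of 0.00882 in WT and 0.0180 in KO. The bin of the synaptic adhesion gene Nlgn3 and the gap junction gene Gjb1 had 0.00611 in WT and 0.0190 in KO. Zc4h2 had 0.0134 and 0.0282. Lower in KO were Magee1, of the MAGE family, with 0.0115 and 0.00326, although its bin was higher in KO at 250 kb, and Il1rapl1, with 0.0404 and 0.0375. Muscle, skin and matrix genes lay in 10 bins, 9 of them scored, with 4 lower and 5 higher on mus. Tmem47, a membrane protein gene, had 0.0562 in WT and 0.0403 in KO, and Dmd 0.0415 and 0.0365. The growth factor gene Fgf16 had -0.0103 and 0.00839, but its bin was lower in KO at 250 kb. Over the 131 scored gene-holding bins of the stretch, 70 were lower and 61 higher on mus.

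Among all gene-holding bins with the same direction at 250 kb, the largest differences in side score on mus lay in 3 places. The lowest in KO were Gm52437 at 89.3 Mb, 0.0353 in WT and 0.00200 in KO, Gm52433 at 77 Mb, 0.0629 and 0.0354, and Cldn34-ps at 77.6 Mb, 0.0747 and 0.0475. The highest in KO were neighbours at 95.8 to 96.3 Mb. Hsf3, a heat shock factor gene, had 0.00419 in WT and 0.0391 in KO, Las1l is given above, and Zc3h12b, a zinc finger gene, had 0.0197 and 0.0414.

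Among the largest differences in gene score on cas were those of another set of bins. The nucleosome assembly relative Nap1l2 had 0.00623 in WT and -0.0125 in KO, and the bin of Dmrtc1b, Gm9112 and Gm9119 -0.000189 and -0.0182. These bins lie at 102.7 and 103.1 Mb, beside the X-inactivation centre, and each was lower in KO, that of Nap1l2 with a change of sign. At 250 kb the bin of Dmrtc1b was above 0 in both genotypes, with 0.0742 in WT and 0.0292 in KO. In the other direction, Tmem47 had -0.0167 in WT and 0.00942 in KO, the copper oxidase gene Heph -0.0286 and -0.00242, and Rtl3, a gene derived from a retrotransposon, -0.00792 and 0.0138.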

How the data were processed

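Hi-C was measured in 4 samples, 2 WT and 2 KO. The deposited matrices give, for each genotype, allele and bin size (100 and 250 kb), a score per pair of chromosome X bins, which is a correlation coefficient in HOMER's matrix format with the replicates combined by the authors, per the file headers. Tools named in the submitters' processing notes are Juicer, HOMER, Bowtie2 and cutadapt, with build mm10. For their versions, the contact normalization, the allele rule and the read depth, a value was not given in the sources used here.

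Measures were computed from these 8 matrices with Python 3.11.15, numpy 2.4.6 and pandas 2.3.3, on bins with data in all 4 matrices of a size (1461 of 1707 at 100 kb, 588 of 683 at 250 kb, where 136 lie wholly inside the stretch) and pairs at least 2 Mb apart. Contrasts compare classes of pairs at equal distance. The bin at 75.7 Mb holding the midpoint of 4933407K13Rik was in neither side. Genes were placed by their midpoints in RefSeq (GRCm38.p6), and Gyk and Cnbp2 were found as Gk and Zcchc13. No significance test was possible. On simulated matrices of 1461 bins the Dxz4 contrast was recovered within 0.000184 and the gene contrast within 6.71e-05, and 100% of 50 planted bins were found. The simulated noise was independent between pairs of bins, and the shift planted in a bin was as large as the SD of that noise. It was larger than the observed median difference in side score on mus, -0.00647. The simulation therefore checks the code and not what could be detected in the real matrices.

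The stretch, its intervals and the 6 gene lists were chosen with earlier results of these data known. Named genes were every gene of the X-inactivation centre and, ranked by KO minus WT side score on mus, the 2 bins at either end of each other list. Added to these were the 3 gene-holding bins at either end of that ranking, and of the ranking by gene score on cas, that kept their sign at 250 kb. Some genes that this rule takes are not reported here, so fewer bins are named at some ends. Where an end had none left, the next 2 bins were named. Counts and medians of the lists leave these genes out. The genes at boundaries and the 8 viewpoints are outside this rule and were chosen with values in view. As alternatives, 250 kb bins, pairs at least 5 Mb apart, division by the SD, omission of the weakest 10% of bins, each interval left out, other edges, windows, distances and gene classes, subtraction of the mean at each distance and rank correlation were tried.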

Additional observations from a re-analysis of the deposited data

Results flagged for a closer look

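For 13 measures, KO minus WT had opposite signs on mus and on cas. Each is 1 difference between combined matrices per allele, and the difference between alleles was not tested. For the Dxz4 contrast over all distances the difference was -0.00868 on mus and 0.00474 on cas, where the contrast itself is negative. On both alleles it thus lay nearer 0 in KO. For pairs under 10 Mb apart the contrast on cas was positive. Its difference then had the same sign as on mus, -0.00287 at 2 to 5 Mb and -0.00857 at 5 to 10 Mb. The contrast at the right edge differed by -0.00427 on mus and 0.000376 on cas, and the cas sign changed with the edge. The median of the differences in side score was -0.00647 on mus and 0.00314 on cas.

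Among pairs of intervals, 75.8 to 83 Mb with 93 to 100 Mb differed by -0.00403 on mus and 0.000349 on cas, and with 100 to 105 Mb by -0.00260 and 0.00719. The difference of 83 to 93 with 100 to 105 Mb was -0.000701 on mus and 0.0104 on cas. That within 93 to 100 Mb was -0.000334 and 0.00349. In the other direction, 93 to 100 with 105 to 110 Mb differed by 0.00507 on mus and -0.00104 on cas, and 105 to 110 Mb within itself by 0.00183 and -0.00187. With the chromosome's mean at each distance subtracted, the signs stayed opposite only for the pairs with 75.8 to 83 Mb. The other differences were then above 0 on both alleles. On mus and cas they were 0.00296 and 0.0116 for 83 to 93 with 100 to 105 Mb. Within 93 to 100 Mb they were 0.00623 and 0.00582. For 93 to 100 with 105 to 110 Mb they were 0.00955 and 0.000388, and within 105 to 110 Mb 0.00850 and 0.000456.

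Among the gene lists, the median difference in side score was -0.00656 on mus and 0.0139 on cas for the X-inactivation centre, and -0.00276 and 0.00796 for escape genes. It was -0.00102 and 0.000718 for silenced genes, and -0.00808 and 0.00213 for testis and germ cell genes. These are medians of the differences. On mus the median score itself was higher in KO for escape genes, 0.0116 in WT and 0.0148 in KO. The same was so for silenced genes, 0.0194 and 0.0206. At 250 kb the centre's bins on mus differed by 0.00422 for Cdx4 and Xist, -0.0229 for Ftx and Zcchc13 and 0.0451 for Rlim, so they had no common direction.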

How the results depend on the processing

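No paired analysis was possible because the deposited matrices combine the replicates of each genotype, and for the same reason no replicate was left out. Read depth is unknown, and what it limits was not measured. A value was counted as kept if it stayed within the range given by leaving out each of the 5 intervals, and a count if it stayed within 1.5 times. The values that set this range are in the tally too, and they counted as kept by construction unless they turned direction. The boundary scores had no such range, and all of their values counted as moved or turned. A ratio could also count as kept where the contrast itself changed sign. This was so for the Dxz4 contrast on cas in a nearer class of pairs, 0.0262 in WT against -0.0142 over all distances. The number kept is therefore no measure of stability. Of the alternative values of the contrasts, similarities, interval means, shares of bins and boundaries, 87 kept and 20 moved, and 5 turned direction. Of 93 for the 31 named bin scores, 28 kept, 59 moved and 6 turned, and 31 of the moves came with division by the SD, which changes the unit. The cause was not tested for any of them.

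With 250 kb bins the KO to WT ratio of the Dxz4 contrast was 0.614 on mus and 0.751 on cas, and the similarity of WT and KO was 0.353 on mus and 0.904 on cas. There the KO minus WT gene contrast on cas turned to 3.98e-05, and the mean of 83 to 93 with 100 to 105 Mb on cas differed by 0.0421. By distance, the ratio of the Dxz4 contrast was 0.462 (mus) and 0.910 (cas) at 2 to 5 Mb, and 0.707 (mus) at 5 to 10 Mb. With intervals left out the ratio ran from 0.757 to 0.834 on mus and from 0.476 to 0.738 on cas.

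At the right edge those ranges were 0.770 to 0.850 on mus and 0.986 to 1.20 on cas, the lowest being without 93 to 100 Mb, where the direction turned. With the edge 5 Mb to the left the ratio on mus was 0.740, and with it 5 Mb to the right 0.655 on mus and 0.834 on cas, again turned.

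The gene contrast, KO minus WT, was -0.0406 on mus and -0.0265 on cas after division by the SD, which changes its unit. With bins classed by gene bodies it was 0.00110 on mus, turned, and -2.63e-05 on cas. Without the weakest bins it was -0.00282 on cas, and the similarity on cas was 0.677. With intervals left out it ran from -0.00234 to -0.000121 on mus and from -0.00243 to -0.000771 on cas. The similarity then ran from 0.0832 to 0.157 on mus and from 0.517 to 0.673 on cas.

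The KO to WT ratio of the boundary score at 93.5 Mb on mus, 0.132, was 0.336 at 250 kb, 0.298 with a window of 500 kb and 0.857 with one of 2 Mb. That at 93 Mb on cas, 1.04, was 1.09, 1.37 and, turned, 0.976. The side scores on mus that turned at 250 kb, as KO minus WT, were those of Cdx4 and Chic1 and of Xist, Tsix, Tsx and Jpx (0.00422, 1 bin), Magee1 (0.0214), Fgf16 (-0.0440), Mageb4 (-0.00417) and Mageb5 (-0.00707).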
